A study of Homo sapiens with 8 samples.

Results

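METTL14 knockdown was examined for its effect on the m6A antibody enrichment of each gene's RNA in SK-N-BE(2), an established human neuroblastoma cell line with many copies of MYCN. The quantity was IP over input, the log2 ratio of a gene's share of the reads in the antibody pull-down (IP) to its share in the fragmented RNA before the pull-down (input). A value of 0 means that the antibody neither enriched nor depleted the gene relative to the other genes. The change after knockdown was the mean of the 2 shMETTL14 cultures minus the mean of the 2 sh-NC cultures. The genes described are those with at least 10 counts in every one of the 8 libraries, which were 18987 of 56303 in the table. They are taken by baseline enrichment, gene length, exon structure and functional group, and single genes come last.

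N6-methyladenosine is placed on nuclear messenger RNA by a complex in which METTL3 holds the catalytic site, METTL14 helps to bind the RNA, and WTAP, VIRMA, ZC3H13, RBM15 and CBLL1 recruit and position both. The mark lies mostly in long internal exons and in the last exon near the stop codon, and exon junctions, packed with exon junction complexes, keep nearby adenosines unmethylated. Genes with few junctions per kilobase are thus known to carry more m6A than genes with many. Reader proteins of the YTH family bind the mark and shorten or alter the life of the RNA.

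All cells came from SK-N-BE(2) and carried a lentiviral pLKO.1 vector, with a control shRNA in the sh-NC arm and an shRNA against METTL14 in the shMETTL14 arm. The methods describe stable lines selected with puromycin. Each arm had cultures 1 and 2, and each culture gave 1 IP and 1 input library from the same fragmented polyadenylated RNA, so that 4 cultures made 8 libraries. Neither the labels nor the methods tell whether shMETTL14 1 and 2 carried 1 shRNA or the pair of METTL14 shRNAs that the study made, or whether the cultures were grown and infected separately, so the spread between them may be technical.

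METTL14, the target of the knockdown, had input counts of 1771 and 1759 with sh-NC against 580 and 612 with shMETTL14, and IP counts of 3552 and 2375 against 763 and 789. Its input level fell by 1.79 on the log2 scale (SE 0.0639, adjusted p = 3.63e-28 by edgeR's quasi-likelihood test over 8 libraries). Total counts lay between 32027379 and 47205265 per library, and the genes described held over 99% of them in every library (99.74% to 99.83%). All 7 adrenergic neuroblastoma markers were present, with summed input levels of 5398 to 5643 CPM (counts scaled to the library size) in sh-NC and 5604 to 5679 in shMETTL14. MYCN made up most of this sum, at 4452 and 4224 CPM in sh-NC against 4310 and 4276 in shMETTL14. Each of the other adrenergic markers was higher in both shMETTL14 inputs, with TH at 32.6 and 35.7 against 68.9 and 70.2 CPM. The summed level of 5 mesenchymal markers was 2229 and 2291 CPM in sh-NC against 1849 and 1856 in shMETTL14. VIM made up most of that sum, at 1913 and 1980 against 1573 and 1570 CPM. FN1, CD44 and YAP1 were also lower in both shMETTL14 inputs, and PRRX1 was higher, at 0.336 and 0.166 against 0.684 and 0.766 CPM. Of 3 immune markers 2 and of 3 epithelial markers 1 stayed under 1 CPM in every input. A bulk input cannot separate fewer cells of a type from less RNA per cell, and the part of these shifts in the results was not tested.

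IP over input had almost the same distribution in all 4 cultures. The 10th percentile, median and 90th percentile were -0.84, 0.019 and 0.78 in sh-NC 1, -0.91, 0.023 and 0.83 in sh-NC 2, -0.86, 0.026 and 0.80 in shMETTL14 1, and -0.84, 0.017 and 0.78 in shMETTL14 2. Across the 18987 genes, Pearson's r of IP over input was 0.860 between the sh-NC cultures, 0.856 between the shMETTL14 cultures and 0.853 to 0.857 for the 4 pairs of cultures from different arms. Among genes with at least 50 counts in every library, r was 0.936 and 0.937 within arms and 0.933 to 0.934 between them. Genes are not independent replicates, and each pair shares the genes' length and base composition.

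The change after knockdown was centred on 0, with a 10th percentile of -0.25, a median of -0.00078 and a 90th percentile of 0.26. Scaling to the library size removes any fall shared by all genes, so the centre carries no information on the overall m6A level. The standard deviation of the change over genes was 0.255, against 0.358 for sh-NC 2 minus sh-NC 1 and 0.352 for shMETTL14 2 minus shMETTL14 1. A change beyond 0.5 in size was seen in 1283 genes (6.76%), whereas the cultures of one arm differed by that much in 2382 genes in sh-NC and 2275 in shMETTL14. A mean of 2 cultures varies less than a single culture, and if the arms were no further apart than their cultures the spread of the change would be 0.707 times that within arms. The ratio found was 0.696 and 0.699 in the lower quintiles of input level, then 0.741 and 0.768, and 0.797 in the highest quintile, where the median gene had 3933 counts per library. By this ratio, well-expressed genes lay slightly further apart between arms than their cultures did, and weakly expressed genes did not. The within-arm spreads (scaled median absolute deviation) in the highest quintile were unequal, at 0.106 in sh-NC and 0.076 in shMETTL14, beside 0.074 for the change. With 2 cultures per arm the error of the ratio is not known.

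Tested gene by gene with edgeR's quasi-likelihood test, the change passed an adjusted p of 0.05 as a fall in 1 of 22953 genes fitted (0.00436%) and as a rise in 0 (0.0%). At an unadjusted p under 0.05, 644 of the 18987 genes were lower in shMETTL14 (3.39%) and 583 were higher (3.07%). DESeq2 gave 0 in both directions after adjustment, and 350 lower and 252 higher before it. Both shMETTL14 cultures lay below both sh-NC cultures in 3285 genes (17.3%) and above them in 3304 (17.4%). These shares are the background for the gene groups below. For a single value, a two-sided exact permutation test with 2 cultures per arm cannot go below p = 0.333.

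The range between enriched and depleted genes overlapped between the arms. Genes were split into quintiles by their mean IP over input over all 4 cultures. The lowest quintile had medians of -0.81 and -0.88 in sh-NC against -0.83 and -0.81 in shMETTL14, and the highest quintile had 0.75 and 0.80 against 0.77 and 0.75. The gap between highest and lowest quintile was 1.56 and 1.68 in sh-NC against 1.60 and 1.56 in shMETTL14, or 1.62 ± 0.086 (SD, n = 2) against 1.58 ± 0.029 (SD, n = 2). Sh-NC 2 had the widest gap. The gap changed by -0.044 in shMETTL14, by -0.105 without sh-NC 1 and by 0.017 without sh-NC 2.

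Quintile by quintile, the median change ran from 0.032 in the lowest through 0.0083, 0.00059 and -0.015 to -0.019 in the highest, so the arms stood closest together in the middle. In the lowest quintile the 4 culture pairs gave -0.013 to 0.068, while sh-NC 2 minus sh-NC 1 gave -0.063. In the highest quintile the pairs gave -0.070 to 0.027, and sh-NC 2 minus sh-NC 1 gave 0.063. This order depends on which culture ranks the genes, since a ranking that shares a library with the change takes up its noise. When genes were ranked in sh-NC 1 and that culture was left out, the gap changed by -0.096 with knockdown. Ranked in sh-NC 2 it changed by 0.015, in shMETTL14 1 by -0.060 and in shMETTL14 2 by -0.016. A narrowing of the enrichment range was thus no larger than the difference between the sh-NC cultures.

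**Figure D1:**
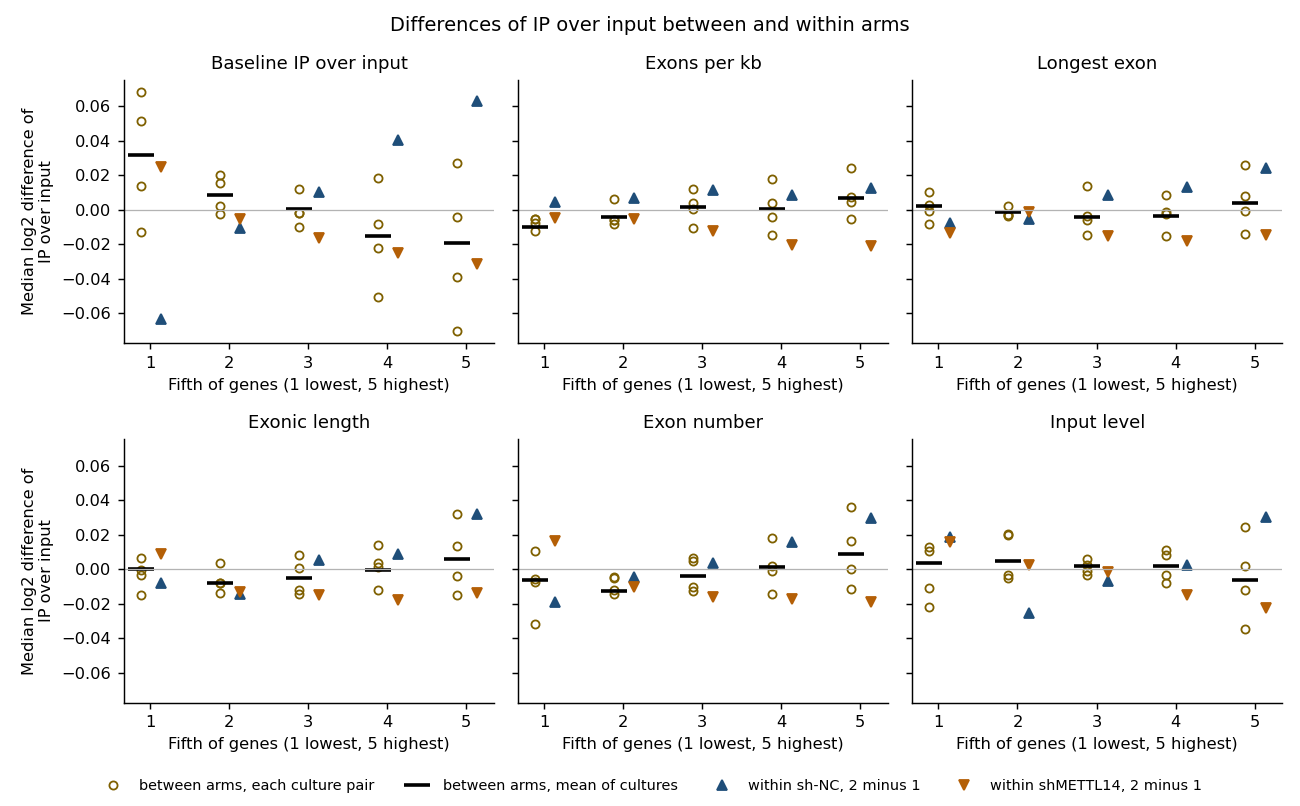
Median log2 difference of IP over input in quintiles of genes, by baseline IP over input, exons per kb, longest exon, exonic length, exon number and input level. Open circles are the 4 culture pairs between arms, bars the median change of the arm means, and triangles the differences between the cultures of 1 arm. Apart from the baseline panel, the bars lie between -0.012 and 0.0088, the circles between -0.035 and 0.036 and the triangles between -0.025 and 0.032.

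Enrichment followed exons per kb and the longest exon, with the same ends in all 4 cultures. Genes in the quintile with the fewest merged exons per kb of exonic length (median 0.726) had a median IP over input of 0.22 and 0.21 in sh-NC against 0.20 and 0.20 in shMETTL14. In the quintile with the most exons per kb (median 5.01) the medians were -0.13 and -0.13 against -0.11 and -0.12. The order fell steadily over the quintiles between, so exon-dense genes stood 0.31 to 0.35 below exon-sparse genes in each culture. With the longest exon the order ran the other way, with medians of -0.11, -0.14, -0.12 and -0.12 in the shortest quintile and 0.13, 0.15, 0.15 and 0.14 in the longest, in the order sh-NC 1, sh-NC 2, shMETTL14 1 and shMETTL14 2. Last exons, taken up after the values were seen, gave a top-minus-bottom gap of 0.177 and 0.177 in sh-NC against 0.164 and 0.174 in shMETTL14. For the longest internal exon, also taken up after the values were seen, that gap was 0.016 and 0.050 in sh-NC against 0.071 and 0.039 in shMETTL14. Genes without an internal exon were given a length of 0, and they filled the lowest quintile and the start of the next. This gap therefore does not compare short with long internal exons. In sh-NC 1 the quintile medians were 0.069, 0.0023, -0.040, -0.014 and 0.085. The last of these quintiles, from -0.040 on, hold only genes with an internal exon, and their medians rose with its length in every culture. Genes with shorter internal exons ran the other way. The decile of 195 to 346 bases had medians of -0.0036, -0.00055, 0.0092 and -0.0055, in the same order of cultures. The decile of 502 to 685 bases had -0.047, -0.058, -0.059 and -0.060. Enrichment thus fell and then rose with the length of the internal exon. Exonic length separated mainly the shortest quintile (median 726 bases), at -0.075 and -0.066 in sh-NC against -0.091 and -0.071 in shMETTL14, from the rest. Each of these profiles is a description across genes of the same libraries.

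**Figure D2:**
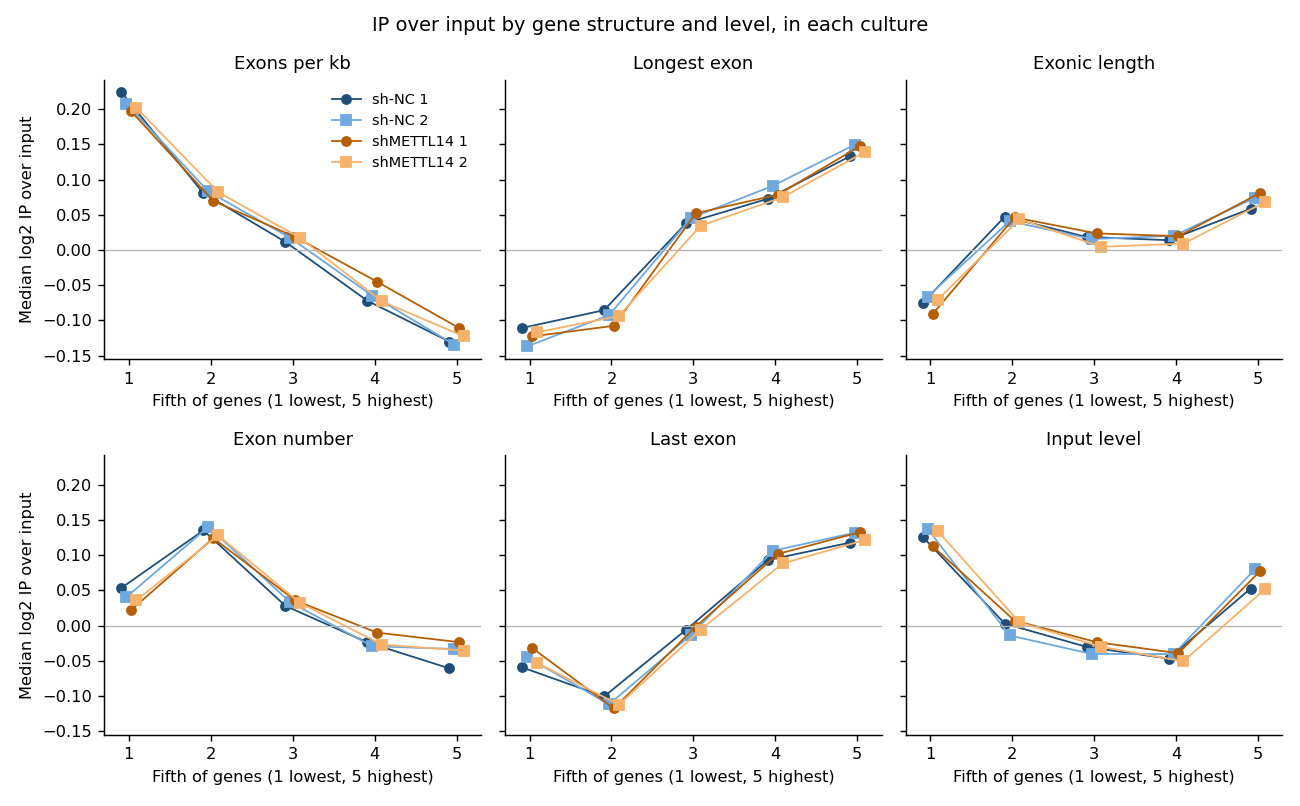
Median log2 IP over input of quintiles of the 18987 genes in each culture, by exons per kb, longest exon, exonic length, exon number, last exon and input level. Blue marks are sh-NC, orange marks shMETTL14, circles culture 1 and squares culture 2. The fall with exons per kb, from 0.22 to -0.13 in sh-NC 1, and the rise with the longest exon are drawn by all 4 cultures.

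The change after knockdown was small along every structural property. Exon density showed the clearest shift: the exon-dense quintile stood below the exon-sparse quintile by 0.354 and 0.342 in sh-NC and by 0.308 and 0.325 in shMETTL14. The gap was -0.348 ± 0.0081 (SD, n = 2) against -0.316 ± 0.012 (SD, n = 2), a difference of 0.032 between arms that did not overlap. The lowest and highest median changes over the quintiles were -0.010 and 0.0066, with all 4 culture pairs below 0 in the exon-sparse quintile (-0.012 to -0.0053). Over all alternatives the difference kept its sign, from 0.023 to 0.047. Within tertiles of exonic length among protein-coding genes it was 0.018, 0.040 and 0.016, where the differences between the cultures of 1 arm ran from -0.034 to 0.033.

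Exon number gave a similar picture. The gap between the quintile with the most exons (median 24) and that with the fewest (median 1) was -0.114 and -0.074 in sh-NC against -0.046 and -0.071 in shMETTL14, a difference of 0.035 with the nearest cultures only just apart. The difference went from 0.015 without sh-NC 1 to 0.056 without sh-NC 2, and was 0.023 without shMETTL14 1, so single cultures moved it by over 1.5 times. In the most exon-rich quintile, 705 of 3798 genes (18.6%) had both shMETTL14 cultures higher and 521 (13.7%) had both lower. All genes had 17.4% and 17.3%. For exonic length the arms overlapped (0.134 and 0.141 against 0.172 and 0.139), as they did for the longest exon (0.244 and 0.286 against 0.270 and 0.256) and for input level (-0.074 and -0.056 against -0.035 and -0.082). The differences for these were 0.019, -0.0021 and 0.0062.

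Intronless protein-coding genes, which lack exon junctions, were enriched in every culture. The 328 such genes with 1 merged exon had medians of 0.45 and 0.42 in sh-NC against 0.42 and 0.40 in shMETTL14, against 0.0071, 0.013, 0.017 and 0.0082 for the 13009 protein-coding genes with more exons. Their median change was -0.010, the culture pairs ran from -0.041 to -0.0032, and the cultures within arms differed by -0.038 and -0.018. Both shMETTL14 cultures were lower in 69 of them (21.0%, where all genes had 17.3%) and higher in 48 (14.6%, where all genes had 17.4%). The 813 genes that RefSeq lists as lncRNA had medians of 0.19 and 0.18 against 0.19 and 0.19, with a median change of -0.00080.

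The 13 mitochondrially encoded mRNAs, made inside mitochondria where the nuclear m6A complex does not act, served as a reference outside METTL14's reach. They were themselves enriched, with medians of 0.53 and 0.67 in sh-NC against 0.59 and 0.55 in shMETTL14. All genes had medians of 0.019 and 0.023 against 0.026 and 0.017. The source of this mitochondrial enrichment was not tested. The median of nuclear genes minus that of these mRNAs was -0.506 in sh-NC 1, -0.646 in sh-NC 2, -0.568 in shMETTL14 1 and -0.532 in shMETTL14 2. The mean was -0.576 ± 0.099 (SD, n = 2) against -0.550 ± 0.026 (SD, n = 2), a change of 0.026 between overlapping arms. It was -0.044 without sh-NC 2 and 0.096 without sh-NC 1, the extremes of leaving out 1 culture. A shift of nuclear IP over input relative to mitochondrial mRNA was not detectable beside the difference between the sh-NC cultures. MT-CO3, a subunit of cytochrome c oxidase and the one with the highest input level per kb, had -0.12 and 0.093 in sh-NC against -0.068 and 0.11 in shMETTL14. MT-ND6, the one mRNA made from the other mitochondrial strand, had 0.95 and 0.89 in sh-NC against 0.74 and 0.73 in shMETTL14, with a log2 change of -0.19 (SE 0.0497, adjusted p = 0.446 by edgeR).

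Gene groups differed far more from one another than either arm differed from the other. Of 34 groups with at least 6 genes, baseline medians over all cultures ran from -0.69 in glycolytic enzymes to 0.72 in the m6A writer complex, while the median change ran from -0.11 to 0.12. The typical size of a group's change was 0.024, beside 0.027 for the difference between the cultures of 1 arm. These are unlike measures, since the change compares means of 2 cultures. It would be 0.707 times the within-arm difference if the arms were no further apart than their cultures. All 4 culture pairs lay on the lower side in 4 groups and on the higher side in 5. In 1 group, the cytosolic ribosomal proteins, every culture pair exceeded both within-arm differences. With 2 cultures per arm no group can go below an exact permutation p of 0.333. How many of the 34 groups would reach these patterns without a knockdown was not tested. Across the 33 groups of nuclear genes the baseline followed exon structure in part (Spearman's rho -0.44 with exons per kb and 0.45 with the longest exon), as a description over groups that share libraries. SLC7A5, an amino acid transporter, was the one gene of these groups past an adjusted p of 0.05 by edgeR. With scaling factors from the least enriched quartile of genes the median fitted change of all genes moved to -0.061, a shift that all groups shared, so that the 5 groups on the higher side had negative fitted medians (-0.038 to -0.0029) and still lay above the median of all genes.

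**Figure D3:**
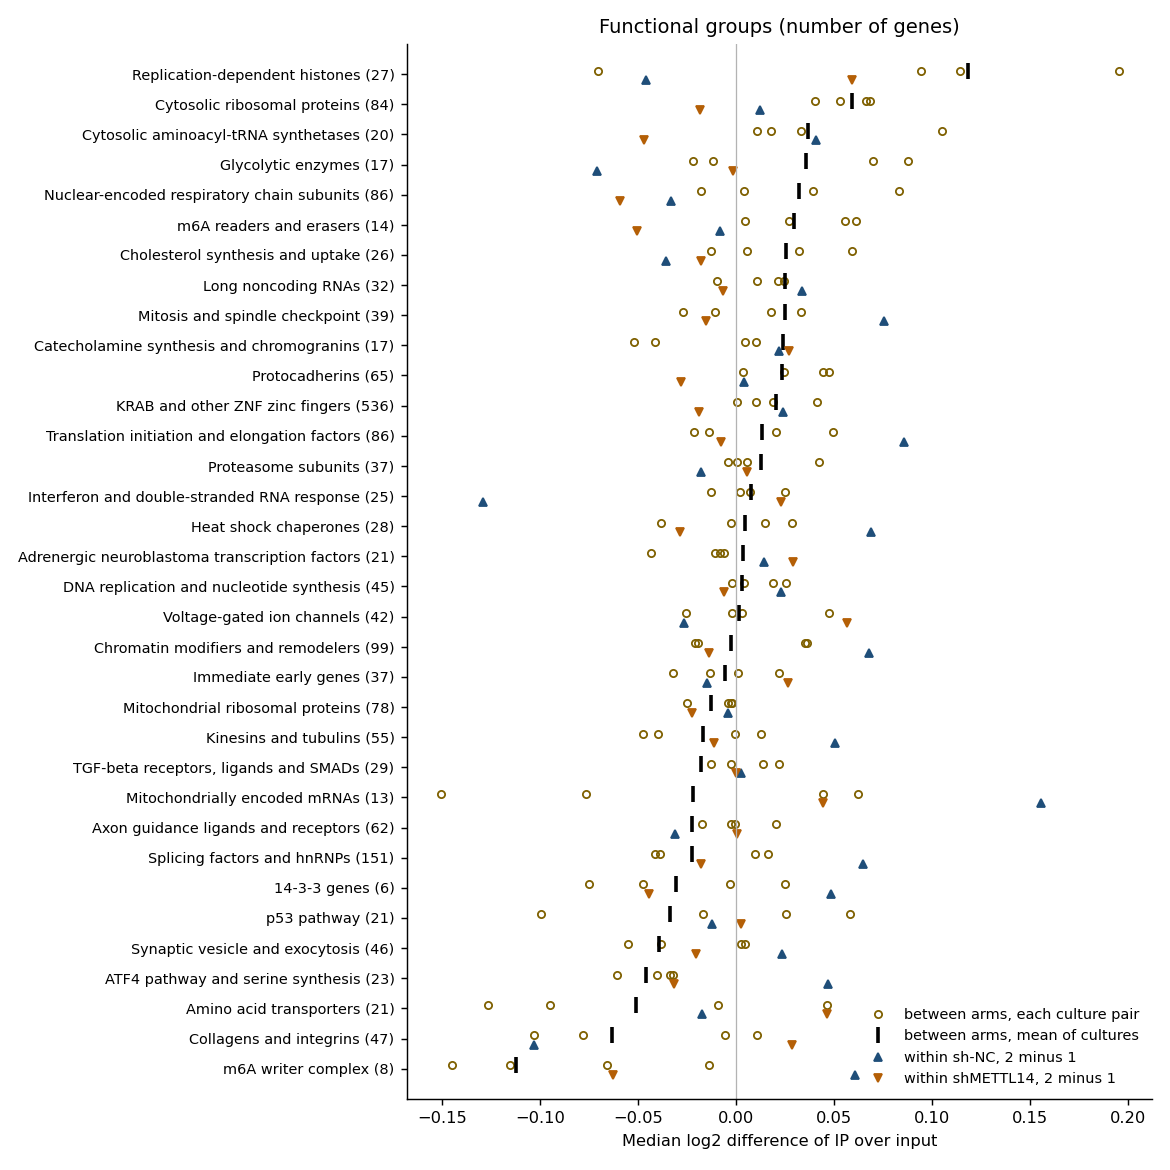
Median log2 difference of IP over input for 34 functional groups, ordered by the median change, with the number of genes in brackets. Open circles are the 4 culture pairs between arms, bars the median change of the arm means, and triangles the differences between cultures of 1 arm. For cytosolic ribosomal proteins the circles, at 0.040 to 0.069, all lie beyond the triangles with TMM scaling, while the fitted median is -0.0029 with the least enriched quartile as reference.

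Cytosolic ribosomal protein genes, which encode the protein part of the ribosome and are short, heavily transcribed genes, were depleted by the m6A antibody in every culture. The 84 genes had a median IP over input of -0.649 in sh-NC 1, -0.642 in sh-NC 2, -0.561 in shMETTL14 1 and -0.562 in shMETTL14 2. Both shMETTL14 cultures lay above both sh-NC cultures, and the cultures of each arm lay close together. The median change was 0.059 (fitted median -0.0029 with the least enriched quartile as reference), with culture pairs from 0.040 to 0.069 and within-arm differences of 0.012 and -0.019. Leaving out 1 culture at a time gave 0.043 to 0.071, and the median change was 0.065 in the 36 genes whose exons overlap no other gene.

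Both shMETTL14 cultures were higher in 38 of these genes (45.2%, where all genes had 17.4%) and lower in 5 (5.95%, where all genes had 17.3%). At an unadjusted p under 0.05, 23 of the 84 were higher and 3 were lower, where all genes had 3.07% higher and 3.39% lower. Large-subunit genes (51) had a median change of 0.058, with culture pairs from 0.022 to 0.071 and a difference of 0.033 between the sh-NC cultures, which the lowest pair did not exceed. Small-subunit genes (33) had one of 0.066, with pairs from 0.039 to 0.082 and within-arm differences of -0.021 and -0.0010. The change lay mostly in depleted genes: 52 were in the lowest baseline quintile, with a median change of 0.084 beside 0.032 for that quintile as a whole, and the other 32 had 0.029 with pairs from -0.033 to 0.074. This split was made after the values were seen. Over all 84 genes the shift was larger than the spread between these cultures, which does not hold for the large subunit alone or for the 32 genes.

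RPS13, a small-subunit protein, had -1.90 and -1.97 in sh-NC against -1.71 and -1.60 in shMETTL14, the largest change of the group at 0.28 (SE 0.0742, adjusted p = 0.446 by edgeR). RPL39L, a copy of a large-subunit protein gene, had 0.11 and -0.078 against -0.10 and -0.18, the lowest change at -0.16 (SE 0.100, adjusted p = 0.835 by edgeR). RPL19, the gene of the group with the highest input level per kb, had 0.45 and 0.54 against 0.50 and 0.48, and its arms overlapped.

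The input level of these genes moved too. Its median log2 fold change was -0.13, and input enters the ratio. At an adjusted p under 0.05 by edgeR, the input of 48 of 84 genes fell and that of 1 rose. Among all 18987 genes the input of 2777 fell and that of 2475 rose. In the 35 genes with no call in the input the median change of IP over input was 0.051, and in the 48 that fell it was 0.063, with a lowest pair of 0.032 that did not exceed the within-arm difference of -0.032 in size. Ribosomal protein genes have near-identical pseudogenes that can share their reads, and 171 such pseudogenes among the genes described, looked up after the values were seen, had a median change of 0.040 with culture pairs from -0.0023 to 0.107. With factors from the least enriched quartile of genes the group's median fitted change was -0.0029 and that of all genes -0.061. Since 52 of the 84 genes are in the lowest baseline quintile, the group can itself take part in setting that reference, which draws its value towards 0. Relative to the median of all genes, the group's fitted change was 0.058 to 0.061 under all 5 scalings.

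**Figure D4:**
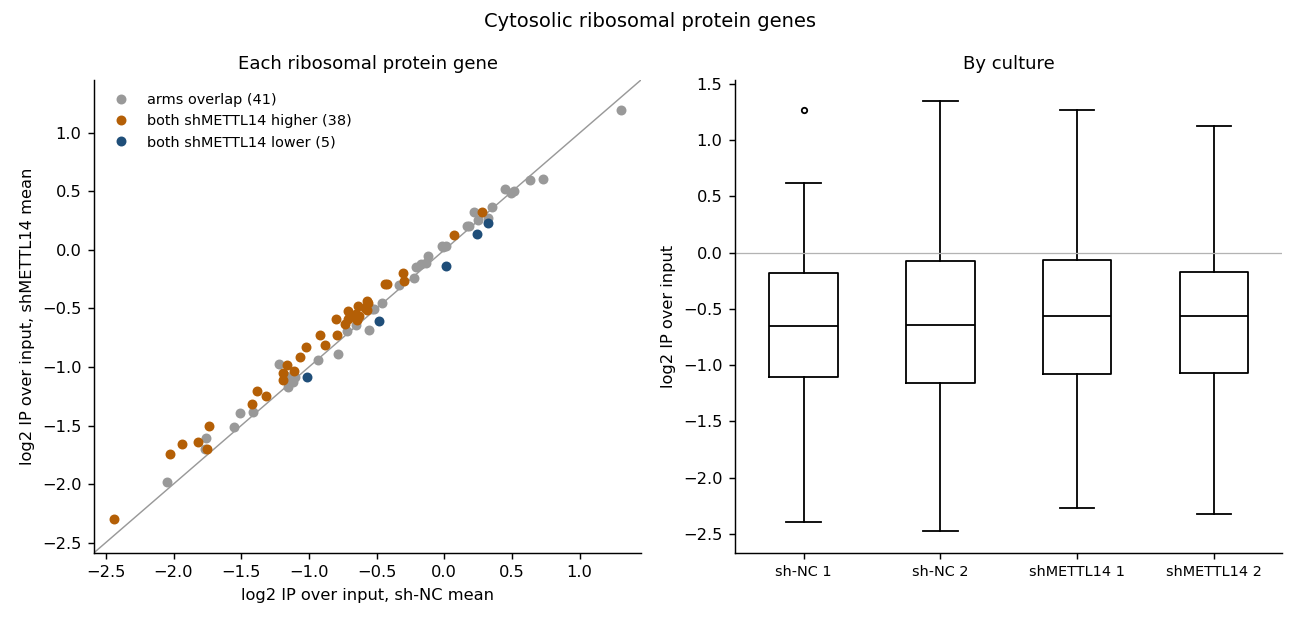
Left, log2 IP over input of each of 84 cytosolic ribosomal protein genes, mean of the sh-NC cultures against mean of the shMETTL14 cultures, with the line of equal values. Right, the same genes by culture, with the box at the quartiles, the line at the median and whiskers to the last gene within 1.5 box lengths. Of the 84 genes, 38 lie above the line with both shMETTL14 cultures higher and 5 below it with both lower, with TMM scaling; the group's fitted median change is -0.0029 with the least enriched quartile as reference.

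The genes of the m6A machinery were themselves enriched. The 8 genes of the writer complex had medians of 0.59 and 0.74 in sh-NC against 0.77 and 0.69 in shMETTL14, and the median change within genes was -0.11, with culture pairs from -0.15 to -0.014, within-arm differences of 0.061 and -0.063, and a range of -0.13 to -0.044 with each culture left out. The median of the levels and the median of the changes thus differ in sign. ZC3H13, RBM15, RBM15B, CBLL1 and KIAA1429 (which encodes VIRMA), 5 genes picked out after their values were seen, had both shMETTL14 cultures lower with changes from -0.13 to -0.11. ZC3H13, the scaffold with the highest input level per kb, had 0.93 and 1.11 in sh-NC against 0.91 and 0.90 in shMETTL14, and CBLL1, a ubiquitin ligase, had 0.47 and 0.59 against 0.46 and 0.35. WTAP, the adaptor that brings METTL3 and METTL14 to nuclear speckles, had 0.53 and 0.80 against 0.84 and 0.73. METTL14 itself had 0.66 and 0.68 against 0.85 and 0.67, on an input reduced to the level given above, and METTL3, also outside the naming rule, had 0.076 and 0.053 against 0.10 and 0.078. None of the 8 genes passed the adjusted test by edgeR (adjusted p = 0.767 to 0.994). At an unadjusted p under 0.05, 1 was lower and 0 were higher, where all genes had 3.39% and 3.07%.

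Readers and erasers, 14 genes, had a median change of 0.029 with all 4 culture pairs on the higher side (0.0047 to 0.061, but a fitted median of -0.032 with the least enriched quartile as reference) and a within-arm difference of -0.051 in shMETTL14. HNRNPA2B1, a nuclear RNA-binding protein, had 0.14 and 0.16 in sh-NC against 0.10 and 0.079 in shMETTL14. YTHDC1, the nuclear reader, had 0.69 and 0.85 in sh-NC against 0.61 and 0.58 in shMETTL14, the lowest change of the group at -0.18 (SE 0.0549, unadjusted p = 0.0022, adjusted p = 0.562 by edgeR). MAT2A, which makes the methyl donor S-adenosylmethionine and is methylated by METTL16 instead, had -0.43 and -0.51 against -0.39 and -0.42.

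The genes of the ATF4 amino acid response stood on the lower side in all 4 culture pairs, but not every pair exceeded the difference between the sh-NC cultures. The 23 genes of the ATF4 pathway and serine synthesis had medians of 0.17 and 0.23 in sh-NC against -0.071 and -0.023 in shMETTL14 and a median change within genes of -0.046, with culture pairs from -0.061 to -0.032, within-arm differences of 0.047 and -0.032, and a range of -0.050 to -0.039 with each culture left out. Both shMETTL14 cultures were lower in 7 and higher in 3. ATF4, the transcription factor of the pathway, had 0.21 and 0.27 in sh-NC against 0.24 and 0.20 in shMETTL14. CHAC1, which degrades glutathione, had 0.62 and 0.50 in sh-NC against -0.17 and 0.24 in shMETTL14, with a log2 change of -0.53 (SE 0.320, adjusted p = 0.826 by edgeR). ASNS, asparagine synthetase, had -1.36 and -1.31 against -1.10 and -1.17, the largest change upward at 0.20.

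Among 21 amino acid transporters the median change was -0.051, but the culture pairs ran from -0.13 to 0.046. Both shMETTL14 cultures were lower in 4 and higher in 1. SLC38A2, a carrier of neutral amino acids and the transporter with the highest input level per kb, had -0.65 and -0.70 in sh-NC against -0.73 and -0.70 in shMETTL14. The 20 cytosolic aminoacyl-tRNA synthetases, which charge tRNAs with amino acids, had a median change of 0.037 (a fitted median of -0.023 with the least enriched quartile as reference) with pairs from 0.011 to 0.11 and within-arm differences of 0.041 and -0.047. FARSB, a subunit of the phenylalanine enzyme, had -0.81 and -0.43 in sh-NC against -0.33 and -0.34 in shMETTL14 (log2 change 0.30, SE 0.0858, unadjusted p = 0.0011, adjusted p = 0.545 by edgeR).

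Metabolic groups were depleted at baseline and showed no change beyond the cultures. Cholesterol genes (26) had medians of -0.35 and -0.41 in sh-NC against -0.35 and -0.35 in shMETTL14. Their input fell in 17 and rose in 1 at an adjusted p under 0.05 by edgeR, beside 2777 falls and 2475 rises among all 18987 genes. Glycolytic enzymes (17) had -0.69 and -0.75 against -0.68 and -0.59, with culture pairs from -0.022 to 0.088. GAPDH had -1.38 and -1.37 in sh-NC against -1.24 and -1.19 in shMETTL14, with a log2 change of 0.16 (SE 0.0480, unadjusted p = 0.0017, adjusted p = 0.562 by edgeR). Nuclear-encoded respiratory chain subunits (86, of which 7 are not listed as protein-coding) had a median change of 0.032 with pairs from -0.018 to 0.083. Both shMETTL14 cultures were higher in 21 (24.4%, where all genes had 17.4%) and lower in 7 (8.14%, where all genes had 17.3%). Mitochondrial ribosomal proteins (78), the mitochondrial counterpart of the cytosolic group, had a median change of -0.013 with all pairs on the lower side (-0.025 to -0.0020, but 0.00017 for the fitted median with factors from mitochondrial mRNAs) and a within-arm difference of -0.022.

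Proteasome subunits (37), translation factors (86) and heat shock chaperones (28) had median changes of 0.013, 0.013 and 0.0046, each with culture pairs on both sides of 0. HSP90AB1, a cytosolic chaperone and the one with the highest input level per kb, had 0.24 and 0.41 in sh-NC against 0.17 and 0.21 in shMETTL14, the lowest change of its group at -0.14 (SE 0.0492, adjusted p = 0.629 by edgeR). PSMD7, of the proteasome cap, had 0.48 and 0.57 against 0.33 and 0.36, and EEF2, the elongation factor that moves the ribosome along, had -0.50 and -0.60 against -0.57 and -0.51. Splicing factors and hnRNPs, 151 genes of which 56 are not listed as protein-coding, had a median change of -0.022. Both shMETTL14 cultures were lower in 31 (20.5%, where all genes had 17.3%) and higher in 21 (13.9%, where all genes had 17.4%).

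Zinc finger genes and protocadherins, which carry long single exons, were among the most enriched groups. The 536 ZNF genes, many of them repressors of transposable elements, had medians of 0.62 and 0.63 in sh-NC against 0.67 and 0.62 in shMETTL14. Their median change was 0.020, with all culture pairs on the higher side (0.00039 to 0.041, but a fitted median of -0.038 with the least enriched quartile as reference) and within-arm differences of 0.024 and -0.019. The 65 protocadherins, adhesion molecules that give neurons a surface identity, had 0.70 and 0.67 against 0.64 and 0.70 and a median change of 0.023 (pairs 0.0035 to 0.048, within-arm differences 0.0041 and -0.028, fitted median -0.037 with the least enriched quartile as reference). Both shMETTL14 cultures were higher in 23 of them (35.4%, where all genes had 17.4%) and lower in 9 (13.8%, where all genes had 17.3%). The median change was -0.029 in the 11 protocadherins whose exons overlap no other gene, and 0.0055 without shMETTL14 1, 0.0084 without sh-NC 2 and 0.047 without sh-NC 1.

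Chromatin modifiers (99), DNA replication genes (45) and mitotic genes (39) had median changes of -0.0026, 0.0029 and 0.025, with culture pairs on both sides of 0. DNA replication genes were depleted in every culture (-0.36, -0.31, -0.35 and -0.31). Their input fell in 33 and rose in 1 at an adjusted p under 0.05 by edgeR, beside 2777 falls and 2475 rises among all 18987 genes. MKI67, a marker of dividing cells, had 0.75 and 0.94 in sh-NC against 0.86 and 0.82 in shMETTL14. Replication-dependent histones (27) had the highest median change, 0.12, but the culture pairs ran from -0.071 to 0.20, the median input level was 1.31 CPM, and histone mRNAs lack poly(A) tails and are poorly captured by this protocol.

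Of the neuroblastoma and neuronal groups, adrenergic transcription factors and kinesins and tubulins were enriched in every culture, while catecholamine, synaptic vesicle and axon guidance genes were depleted. Adrenergic transcription factors (21) had medians of 0.29 and 0.35 in sh-NC against 0.30 and 0.34 in shMETTL14, with all culture pairs on the lower side (-0.044 to -0.0063) while the median change of the arm means was 0.0038. MYCN, the amplified oncogene, had 0.31 and 0.35 against 0.34 and 0.34. Catecholamine and chromogranin genes (17) had a median change of 0.024, synaptic vesicle genes (46) -0.039, voltage-gated channels (42) 0.0017, axon guidance genes (62) -0.022 and kinesins and tubulins (55) -0.017. In each of these 5 groups the culture pairs fell on both sides of 0. SCG2, a secretory granule protein, had 1.19 and 1.33 in sh-NC against 1.18 and 1.13 in shMETTL14. EPHA2, an ephrin receptor, had 0.16 and 0.25 against -0.36 and -0.15, with a log2 change of -0.46 (SE 0.158, unadjusted p = 0.0057, adjusted p = 0.604 by edgeR).

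Collagens and integrins (47) had a median change of -0.063, but sh-NC 2 minus sh-NC 1 was -0.10 and the pairs ran from -0.10 to 0.011. Immediate early genes (37), p53 pathway genes (21), TGF-beta genes (29), interferon genes (25), selected long noncoding RNAs (32) and 14-3-3 genes (6) had median changes from -0.034 to 0.025, all with culture pairs on both sides of 0. GADD45A, a p53 target in DNA repair, had 0.97 and 1.07 in sh-NC against 0.87 and 0.76 in shMETTL14, with a log2 change of -0.21 (SE 0.0691, unadjusted p = 0.0045, adjusted p = 0.604 by edgeR). MYC, usually low in MYCN-amplified cells, had 1.39 and 0.69 against -0.18 and 0.023, with a log2 change of -1.06 (SE 0.385, unadjusted p = 0.0084, adjusted p = 0.640 by edgeR). Of the 6 14-3-3 genes, adaptors that bind phosphorylated proteins, both shMETTL14 cultures were lower in 3 (YWHAB, YWHAG and YWHAH) and higher in 2 (YWHAQ and YWHAZ), where YWHAB and YWHAQ were named after their values were seen. All genes had 17.3% lower and 17.4% higher. YWHAH had 0.82 and 0.84 in sh-NC against 0.76 and 0.65 in shMETTL14, with a log2 change of -0.13 (SE 0.0561, unadjusted p = 0.0252, adjusted p = 0.719 by edgeR). Its input changed by 0.11 on the log2 scale (adjusted p = 0.0438 by edgeR). Counts per gene do not separate its 5' UTR, where the paper reported the fall of m6A, from the rest of the transcript.

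Single genes with the smallest p-values come last. They were picked for small p-values and arms that do not overlap, so changes larger than the group medians follow from that choice. SLC7A5, the light chain of a leucine transporter on chromosome 16 (87830023 to 87869488, GRCh38), had an IP over input of 0.079 and 0.33 in sh-NC against -0.15 and -0.39 in shMETTL14, and was the one gene past the adjusted threshold. DEAF1, a transcription factor on chromosome 11 (644233 to 706715), had 0.099 and 0.016 against -0.28 and -0.30, with tight cultures on either side. TMEM101, a membrane protein gene on chromosome 17 (44011188 to 44023946), had 0.28 and 0.062 against -0.19 and -0.28. DEAF1 and TMEM101 had log2 changes of -0.35 (SE 0.0682) and -0.41 (SE 0.0854), with adjusted p of 0.0506 and 0.0930 by edgeR over all 22953 genes, and 0.00898 and 0.0333 when the fit held the 18987 genes described. With DESeq2 the adjusted p was 1.00 for SLC7A5, 0.454 for DEAF1 and 0.729 for TMEM101. Exons of SLC7A5 and DEAF1 overlap another gene, and the deepest gene at each locus had 325 counts beside 33542 and 1258 beside 26672. Input levels changed too, by -0.47 in SLC7A5, -0.20 in DEAF1 and 0.16 in TMEM101 on the log2 scale. The adjusted p of these input changes was 1.06e-09, 0.00130 and 0.0474 by edgeR.

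The next falls were LINC00634 at -0.89 (SE 0.193, adjusted p = 0.128 by edgeR) and RRM1-AS1 at -0.36 (SE 0.0818, adjusted p = 0.227 by edgeR). In LINC00634 the input level rose by 1.30 on the log2 scale (SE 0.141, adjusted p = 1.74e-10 by edgeR). Its IP level rose less, from 6.33 and 6.97 CPM in sh-NC to 8.28 and 9.29 in shMETTL14. For RRM1-AS1 the input changed by 0.11 (adjusted p = 0.215 by edgeR). RRM1-AS1 had 13751 counts against 58564 of RRM1 at the same place, and strand was not stated for the counting, so the reads of both cannot be told apart. The rises with the smallest p were CCDC53, AC007098.1, GBAS, AC005519.4 and IP6K1. Input fell by 0.84 in AC007098.1 and by 0.34 in GBAS on the log2 scale (adjusted p = 0.00270 and 2.07e-05 by edgeR). In AC005519.4 and IP6K1 it changed by -0.24 and -0.096 (adjusted p = 0.593 and 0.433 by edgeR). The part of these input changes in the results was not tested. CCDC53, a subunit of the WASH complex on chromosome 12 (102012927 to 102062149), had -0.68 and -0.63 in sh-NC against -0.12 and -0.0029 in shMETTL14, a log2 change of 0.60 (SE 0.143, adjusted p = 0.301 by edgeR) with an input fold change of -0.00044 on the log2 scale. IP6K1, an inositol phosphate kinase, had -0.67 and -0.54 against -0.19 and -0.16 (log2 change 0.43, SE 0.115, adjusted p = 0.446 by edgeR). AC007098.1 and AC005519.4 had 602 and 437 counts over all libraries, inside EHBP1 and ABCD4 with 51009 and 17561.

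**Figure D5:**
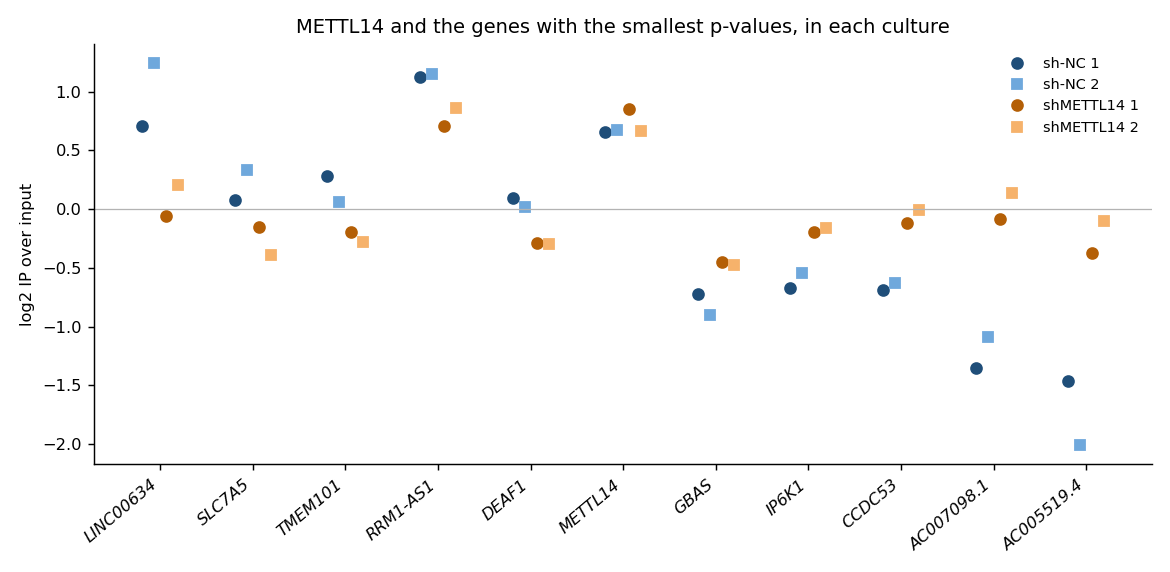
Log2 IP over input in each culture for METTL14 and the 5 genes with the smallest p-values in each direction, ordered by the change. Blue marks are sh-NC, orange marks shMETTL14, circles culture 1 and squares culture 2. The arms do not overlap in the 10 chosen genes, by the rule of choice, and overlap for METTL14.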

How the data were processed

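The authors deposited raw counts per gene, without normalization, for 8 MeRIP-seq libraries of SK-N-BE(2) cells. The submitters' processing notes name Trimmomatic 0.36 and GRCh38; the aligner, counter, annotation, strand setting and use of molecular identifiers are not given in the sources used here, so counts may not be independent molecules. Libraries were mapped to arms by their titles, and 0 columns were left unused. Exon counts and lengths are those of the merged exons in the table, whose length column matched them for 99.986% of genes. Of the 18987 genes, 14614 matched RefSeq by symbol, 865 by an older symbol and 3508 not at all; 9118 share no exonic base with another gene. The genes and lists were chosen with earlier results of these data known. Lists built from name patterns can hold pseudogenes.

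Counts were fitted in R 4.3.3 with edgeR 4.0.16 (filterByExpr, 22953 genes, TMM factors, glmQLFit and glmQLFTest, 4 group means, contrast of IP over input between arms, Benjamini-Hochberg, threshold 0.05). SE is the absolute log2 fold change over the square root of F. Per-culture IP over input is the difference of log2 CPM (prior count 2, TMM factors). Groups are medians over genes, given without a test. Named are METTL14, YWHAH, SLC7A5, for each list the gene with the highest input CPM per kb and those with the largest rise and fall, genes past the threshold in the fit of all genes or of those with 10 counts in every library, and the 5 smallest p-values each way among genes with a mean of at least 50 counts whose arms do not overlap. Alternatives were DESeq2 1.42.0, 4 other scalings, other count minimums (50), a replicate block, no exon overlap, protein-coding genes, a prior of 0.5, deciles, other rankings and leaving out each culture; protein-coding list members were added after seeing the data. The scripts were tested on simulated data. Figures used matplotlib 3.10.9.

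The protocol pairs the IP and input of a culture, made from one RNA. Over genes, Pearson's r between the culture deviations of IP and of input was -0.0065 for sh-NC and -0.0070 for shMETTL14, and -0.014 between same-numbered cultures of the arms. Depth gives small counting error in well-expressed genes, and the precision is set by 2 cultures per arm. Sequences around m6A sites were not analysed here.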

Additional observations from a re-analysis of the deposited data

Results flagged for a closer look

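SLC7A5, which encodes a leucine transporter subunit, was the one gene whose IP over input differed between the arms by the test of that difference itself, with a log2 change of -0.4661 (SE 0.0783, adjusted p = 0.00666 by edgeR's quasi-likelihood test) and both shMETTL14 cultures below both sh-NC cultures. Its input level fell as well, by 0.47 on the log2 scale. The change kept its sign in each alternative, from -0.61 to -0.35, and was no longer past the threshold with DESeq2 (adjusted p = 1.00), without sh-NC 2 (-0.35, adjusted p = 0.120), without shMETTL14 1 (-0.59, adjusted p = 0.229) and without shMETTL14 2 (-0.35, adjusted p = 0.963), the last 3 by edgeR. The part of the input change in the result was not tested.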

How the results depend on the processing

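The number of genes with lower IP over input, 1, became 0 with DESeq2 and when overlapping genes such as SLC7A5 were left out, 2 with RLE factors, 3 on genes with at least 10 counts and 3 on genes with at least 50, 5 with factors from the least enriched quartile of genes, 12 with no filter beyond 1 count and 644 at an unadjusted p. The number higher, 0, became 583 at an unadjusted p. With each culture left out, the lone culture being assumed to vary like the others, the number lower ran from 0 to 103 (103 without sh-NC 1, 6 without sh-NC 2, 0 without either shMETTL14 culture) and the number higher from 0 to 6; the cause was not tested. Pairing IP and input by a replicate block gave 1 lower and 0 higher and changed no other call. The difference by exonic length was 0.00071 among protein-coding genes, that by exon density 0.0470 with deciles, and that by input level reversed in sign to -0.0287 without exon overlap and -0.0336 with deciles. Exon density, exon number and exonic length kept their sign in all alternatives; longest exon, input level, the enriched-to-depleted gap and the mitochondrial reference did not. Of 34 groups 11 kept the sign of the median change over the alternatives other than scaling, which shifts all genes together. Among named genes no change reversed, 17 values newly passed and 4 (all SLC7A5) no longer did. The cytosolic ribosomal proteins were the 1 group of 34 in which every culture pair exceeded both within-arm differences. With 2 cultures per arm this was not tested against chance. In the other groups at least 1 culture pair did not exceed them. Libraries with fewer counts limit weakly expressed genes.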

Other observations

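Pseudogenes and small RNAs showed no common direction. The 879 pseudogenes had median IP over input of -0.22 and -0.24 in sh-NC against -0.31 and -0.21 in shMETTL14, with a median change of -0.0078 and culture pairs from -0.046 to 0.034. The 323 transcribed pseudogenes, which were enriched, had 0.17 and 0.14 against 0.16 and 0.15 and a median change of 0.0066. The snoRNA genes (44) had -0.90 and -0.73 in sh-NC against -0.47 and -0.68 in shMETTL14, so the medians of the arms did not overlap, but the median change within genes was -0.028 with culture pairs from -0.091 to 0.019. The 46 microRNA genes had 0.073 and 0.19 against -0.063 and 0.021, also without overlap, with a median change of -0.0051. Counts per gene do not separate these RNAs from their host transcripts.

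Among protein-coding genes of similar exonic length, exon density kept its order in each tertile of length. In the shortest tertile exon-dense minus exon-sparse genes gave -0.375 and -0.385 in sh-NC against -0.346 and -0.377 in shMETTL14. In the longest tertile the same difference was -0.261 and -0.241 against -0.224 and -0.247. The gap was thus wider in short than in long genes in all 4 cultures.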
